A study of Mus musculus with 4 samples.

Results

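The heat-shock chaperone genes examined here were *Hspa1a*, *Hspa1b*, *Hspa8*, *Hsph1*, *Dnajb1*, *Dnaja1*, *Hsp90aa1*, *Hsp90ab1*, *Hspe1* and *Hsf1*. They were found by gene symbol and were 10 of the 40213 symbols listed in bulk RNA-seq counts of CD24+ splenic emergency progenitors (EPs). All 10 were among the 12393 genes with enough counts to be tested. EPs are CD11c+CD117+ cells that give rise to conventional dendritic cells when Flt3L is in excess. All mice received 10 μg Flt3L-Ig i.p. on days 0 and 3, and splenic EPs were isolated by sorting on day 9. The WT group comprised 2 libraries from TopBP1 fl/fl littermates without cre. The TopBP1cKO group comprised 2 libraries from TopBP1 fl/fl, CD11c-cre mice, in which the CD11c promoter drives cre, so that deletion is expected in cells that express CD11c. Neither the labels nor the methods say whether a library came from 1 mouse or several, and ages are given for the study as a whole, not for each library.

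Heat-shock proteins bind unfolded polypeptides and return them to a folded state. HSP70 proteins do so in cycles of ATP hydrolysis that are started by J-domain partners (HSP40) and ended by nucleotide exchange factors such as HSP110. HSP90 proteins finish the folding of kinases and hormone receptors with a separate set of co-chaperones. Most cells express constitutive members of each family, and heat, oxidants or other protein-damaging stress add inducible ones through the transcription factor HSF1, which binds heat-shock elements, arrays of GAA and its complement TTC. Inducible HSP70 transcripts are also known to respond to the handling of tissue before sorting. Spleens in this study were ground and strained, with no enzyme named for them.

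Promoter sequences are shown because *Hspa1a* and *Hspa1b* are nearly identical there and because they show where motifs of the HSF1 type occur. RefSeq starts on GRCm38.p6 were at hand for 6 of the 10 genes. *Hspa8*, *Hsp90aa1*, *Hsp90ab1* and *Hsf1* had no entry. The 250 bases before the start were searched on both strands for GAANNTTC, TTCNNGAA and the longer GAANNTTCNNGAA, which contains both. The windows below run 5′ to 3′ in the direction of the gene and end at the base before the start. Capitals mark the matched motifs.

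Hspa1a (chr17:34972157-34972406, minus strand): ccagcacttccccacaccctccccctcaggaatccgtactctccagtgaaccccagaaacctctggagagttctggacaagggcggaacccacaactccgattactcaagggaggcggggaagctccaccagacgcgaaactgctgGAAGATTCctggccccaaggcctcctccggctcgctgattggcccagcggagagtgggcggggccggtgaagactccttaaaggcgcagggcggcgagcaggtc
Hspa1b (chr17:34959239-34959488, minus strand): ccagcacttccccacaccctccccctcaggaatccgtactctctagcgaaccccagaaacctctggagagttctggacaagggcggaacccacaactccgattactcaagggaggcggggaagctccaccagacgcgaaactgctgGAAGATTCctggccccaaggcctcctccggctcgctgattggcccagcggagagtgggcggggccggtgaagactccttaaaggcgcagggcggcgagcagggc
Dnaja1 (chr4:40722218-40722467, plus strand): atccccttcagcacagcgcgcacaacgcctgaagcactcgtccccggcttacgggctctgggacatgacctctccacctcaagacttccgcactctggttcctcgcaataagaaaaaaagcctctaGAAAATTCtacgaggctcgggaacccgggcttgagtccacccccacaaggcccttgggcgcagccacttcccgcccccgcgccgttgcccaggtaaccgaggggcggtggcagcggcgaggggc
Hsph1 (chr5:149636316-149636565, minus strand): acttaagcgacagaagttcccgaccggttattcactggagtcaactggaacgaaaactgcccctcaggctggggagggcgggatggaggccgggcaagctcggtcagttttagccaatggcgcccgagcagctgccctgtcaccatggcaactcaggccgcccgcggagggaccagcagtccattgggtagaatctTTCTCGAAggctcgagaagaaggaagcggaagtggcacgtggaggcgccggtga
Hspe1 (chr1:55087898-55088147, plus strand): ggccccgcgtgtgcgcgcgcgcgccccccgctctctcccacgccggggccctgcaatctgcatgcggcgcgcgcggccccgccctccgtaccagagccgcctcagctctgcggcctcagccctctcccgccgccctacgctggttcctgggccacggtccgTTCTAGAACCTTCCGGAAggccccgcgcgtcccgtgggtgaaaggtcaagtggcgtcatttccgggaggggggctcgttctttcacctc

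*Hspa1a* and *Hspa1b* lie near each other, and their windows differed at 3 of 250 bases (98.8% identical). Both held 1 GAANNTTC, which began 104 bases before the start. *Dnaja1* held the same motif 124 bases before 1 of its starts. *Hsph1* held a TTCNNGAA 54 bases before the start shown and 33 bases before its other start. *Hspe1* alone of the 6 held the longer motif, with 2 overlapping matches on opposite strands and with motif starts 89, 84 and 79 bases upstream. Neither of the *Dnajb1* windows (chr8:83607925-83608174 and chr8:83608298-83608547, plus strand) held any of the 3 motifs. The latter window lies wholly downstream of the start that the former precedes, so only the former is upstream of every *Dnajb1* start used. GAANNTTC occurred in 6.69% of all 32851 gene starts, TTCNNGAA in 7.17% and GAANNTTCNNGAA in 0.466%. A match describes letters only and does not show that HSF1 bound there.

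The 4 libraries held from 14561583 to 15193831 counts, and the 10 chaperone genes took 1.16% and 1.11% of them in WT and 1.07% and 1.05% in TopBP1cKO. *Topbp1*, the targeted gene, was at 77.9 and 75.6 CPM (counts scaled to a common library size with TMM factors) in WT. It was at 50.7 CPM in TopBP1cKO replicate 1 and 82.7 CPM in replicate 2 (log2 fold change −0.20, SE 0.21, edgeR FDR 0.774). The label was thus not borne out by summed *Topbp1* transcripts in replicate 2, and deletion itself was not measured here. The group is called by its label. That library also stood apart over all genes, where the chi-square per degree of freedom between its counts and those of another library was 41.4 to 50.9, compared with 12.6 to 15.4 for the remaining pairs. The sorted phenotype was present in every library, with *Itgax* (CD11c) between 614 and 690 CPM, *Kit* (CD117) between 383 and 481 CPM and *Cd24a* between 756 and 972 CPM.

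None of the 10 chaperone genes differed between TopBP1cKO and WT EPs at FDR < 0.05 by the quasi-likelihood test of edgeR, nor by its likelihood ratio test or the DESeq2 Wald test. Over all genes tested, 13 (0.105%) did by the quasi-likelihood test, 234 by the likelihood ratio test and 137 by the Wald test. The 10 genes divided into 3 sets by their values. The stress-inducible *Hspa1a* and *Hspa1b* were lower in both TopBP1cKO libraries, *Hsp90aa1* and *Hsf1* were higher in both, and the other 6 overlapped between groups. At an unadjusted P below 0.05, *Hsp90aa1* was higher, against 6.95% of all genes, and *Hspa1a* and *Hspa1b* were lower, against 3.77% of all genes. Groups lay apart in the lower direction for 20.8% of all genes and in the higher direction for 22.8%, so that 2 of 10 in each direction is close to the background. The median log2 fold change of the 10 genes was 0.057, beside 0.0084 over all genes. In bulk RNA, fewer cells that express a gene and less RNA per cell cannot be told apart.

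**Figure D1:**
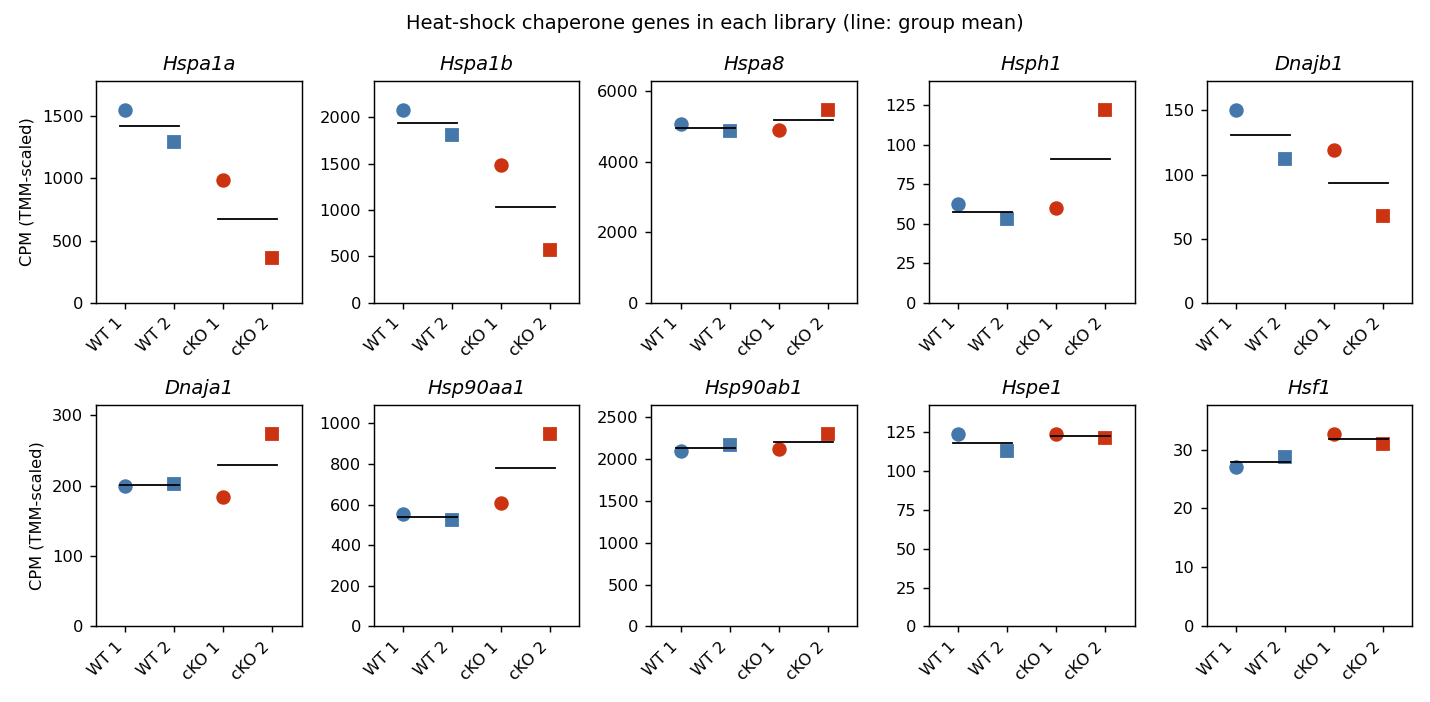
Expression of each chaperone gene (CPM, TMM-scaled, linear axis from 0) in the 2 WT (blue) and 2 TopBP1cKO (red) libraries; circles are replicate 1, squares replicate 2 and lines group means. TopBP1cKO replicate 2 has the lowest *Hspa1a*, *Hspa1b* and *Dnajb1* and the highest *Hsph1*, *Dnaja1* and *Hsp90aa1*, while *Hspa8*, *Hsp90ab1* and *Hspe1* are nearly level.

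*Hspa1a* and *Hspa1b* encode the stress-inducible HSP70 proteins, whose coding sequences are nearly the same. *Hspa1a* was expressed at 1551 and 1295 CPM in WT and at 984 and 359 CPM in TopBP1cKO replicates 1 and 2. Replicate 1 was at 0.692 of the WT mean and replicate 2 at 0.252. The log2 fold change of *Hspa1a* was −1.08 (SE 0.40, 95% interval −2.01 to −0.16, edgeR FDR 0.397). Both TopBP1cKO libraries thus lay below both WT libraries, but they differed from each other by more than replicate 1 differed from WT.

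*Hspa1b* had the same order. It was expressed at 2080 and 1809 CPM in WT and at 1491 and 568 CPM in TopBP1cKO, with a log2 fold change of −0.92 (SE 0.38, 95% interval −1.80 to −0.03, edgeR FDR 0.457). Replicate 1 was at 0.767 of the WT mean and replicate 2 at 0.292. The drop from TopBP1cKO replicate 1 to replicate 2 was among the steepest of all genes, with only 0.41% of genes below *Hspa1a* and 0.476% below *Hspa1b* on this ratio. Of the 31-base sequences in the main *Hspa1a* transcript, 63.8% also occur in *Hspa1b*, and 67.6% of those of *Hspa1b* occur in *Hspa1a*, so the division of reads between the genes is uncertain. *Hspa1a* took 42.7% and 41.7% of their joint counts in WT and 39.8% and 38.7% in TopBP1cKO, lower in both TopBP1cKO libraries. The part of read assignment in this split was not tested. With the counts of both genes added up and fitted as 1 gene, the log2 fold change was −0.99 (SE 0.39, edgeR FDR 0.441).

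The size of the difference depended on which TopBP1cKO library was kept. Without replicate 2, the log2 fold change of *Hspa1a* was −0.54 and that of *Hspa1b* was −0.39. Without replicate 1, they were −1.99 and −1.78. These fits leave 1 library in the group, which is assumed to vary like the others, and the spread between the TopBP1cKO libraries drops out of them. For single genes, only the estimates of such fits are therefore given. The direction for *Hspa1a* and *Hspa1b* was the same in each.

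*Hspa8* encodes the constitutive HSP70 (HSC70), which serves folding, clathrin uncoating and chaperone-mediated autophagy. It was expressed at 5072 and 4855 CPM in WT and at 4908 and 5466 CPM in TopBP1cKO (log2 fold change 0.06, SE 0.17, 95% interval −0.32 to 0.45, edgeR FDR 0.927). The groups overlapped, and the interval leaves out a change as large as the *Hspa1a* estimate in either direction. Of its 31-base sequences, 74.3% recur in the annotated gene Gm15459, so some reads could have been assigned elsewhere. Almost all *Hspa8* counts, from 96.8% to 97.7%, fell on 1 of its 2 transcripts.

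The inducible genes therefore made up a different part of the cytosolic HSP70 counts in each library. *Hspa1a* and *Hspa1b* together held 41.7% (95% Wilson interval 41.4 to 42.0%) and 39.0% (38.7 to 39.3%) of the *Hspa1a*, *Hspa1b* and *Hspa8* counts in WT. They held 33.5% (33.2 to 33.8%) in TopBP1cKO replicate 1 and 14.5% (14.3 to 14.7%) in replicate 2. Both TopBP1cKO libraries were below both WT libraries, and no interval touched another. Intervals cover counting error only, and the smallest P that an exact permutation test allows in groups of 2 is 0.333.

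**Figure D2:**
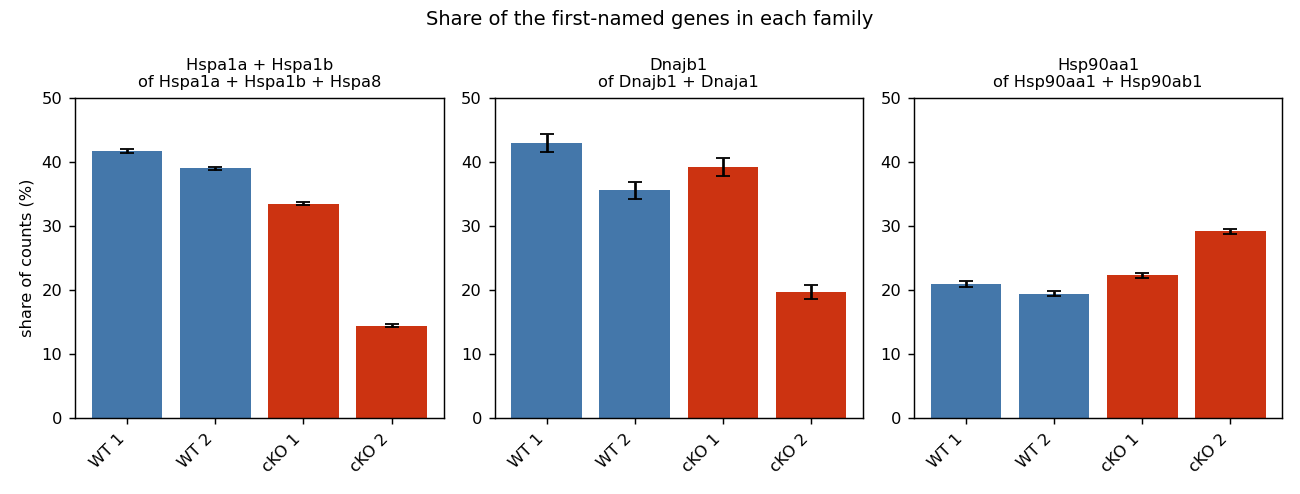
Share of family counts (percent, axis from 0) held by *Hspa1a* and *Hspa1b* among *Hspa1a*, *Hspa1b* and *Hspa8* (left), by *Dnajb1* among *Dnajb1* and *Dnaja1* (middle), and by *Hsp90aa1* among both HSP90 genes (right), in each WT (blue) and TopBP1cKO (red) library; bars on the columns are 95% Wilson intervals. In TopBP1cKO replicate 2 the left and middle shares are the lowest, at 14.5% and 19.7%, and the right share is the highest, at 29.2%.

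The J-domain genes *Dnajb1* and *Dnaja1*, whose proteins load substrates onto HSP70, overlapped between groups. *Dnajb1*, the inducible one, was expressed at 150 and 112 CPM in WT and at 119 and 67.3 CPM in TopBP1cKO (log2 fold change −0.50, SE 0.26, 95% interval −1.10 to 0.11, edgeR FDR 0.549). Replicate 1 lay between the WT libraries and replicate 2 was at 0.513 of the WT mean. *Dnaja1*, which encodes a partner of HSC70 in the cytosol, was at 200 and 203 CPM in WT and at 184 and 274 CPM in TopBP1cKO (log2 fold change 0.19, SE 0.18, edgeR FDR 0.752). Its TopBP1cKO libraries thus lay on opposite sides of the WT libraries, and 33.0% of the 31-base sequences of *Dnaja1* recur in other annotated genes. *Dnajb1* took 43.0% and 35.6% of the joint *Dnajb1* and *Dnaja1* counts in WT, and 39.2% and 19.7% in TopBP1cKO. Leaving out replicate 1 gave −0.96 for *Dnajb1* and 0.44 for *Dnaja1*, whereas leaving out replicate 2 gave −0.15 and −0.14.

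*Hsph1* encodes HSP110, an exchange factor that releases ADP from HSP70. It was expressed at 62.7 and 52.7 CPM in WT and at 59.9 and 122 CPM in TopBP1cKO (log2 fold change 0.66, SE 0.29, 95% interval −0.03 to 1.34, edgeR FDR 0.488). Replicate 1 lay within the WT values, and replicate 2 was at 2.11 times the WT mean. The estimate for *Hsph1* was 0.05 without replicate 2 and 1.08 without replicate 1. Most of its counts, 64.1% to 85.1%, were on 1 of its 4 transcripts, and none of the 31-base sequences of that transcript recur in another gene. *Hsph1* and the inducible HSP70 genes, all described as HSF1 targets, thus stood on opposite sides of WT in replicate 2.

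HSP90 is encoded in the cytosol by the inducible *Hsp90aa1* and the constitutive *Hsp90ab1*. *Hsp90aa1* was expressed at 556 and 524 CPM in WT and at 608 and 950 CPM in TopBP1cKO, with a log2 fold change of 0.53 (SE 0.21, 95% interval 0.05 to 1.01, edgeR FDR 0.434). Both TopBP1cKO libraries lay above both WT libraries, at 1.13 and 1.76 times the WT mean. The estimate for *Hsp90aa1* was 0.16 without replicate 2 and 0.81 without replicate 1. *Hsp90ab1* was expressed at 2094 and 2168 CPM in WT and at 2111 and 2300 CPM in TopBP1cKO (log2 fold change 0.05, SE 0.15, 95% interval −0.29 to 0.39, edgeR FDR 0.940), and the groups overlapped. Of the HSP90 counts, *Hsp90aa1* held 21.0% and 19.5% in WT and 22.4% and 29.2% in TopBP1cKO. The annotated gene Gm12346 shares 57.0% of the 31-base sequences of *Hsp90aa1*, so some *Hsp90aa1* reads could have been assigned elsewhere.

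*Hspe1* encodes HSP10, the lid of the mitochondrial HSP60 chamber. It overlapped between groups, at 124 and 112 CPM in WT and 124 and 121 CPM in TopBP1cKO (log2 fold change 0.05, SE 0.12, 95% interval −0.22 to 0.32, edgeR FDR 0.914). *Hspd1*, which encodes the HSP60 chamber and is known to be transcribed from the same region as *Hspe1* in the opposite direction, was at 141 and 131 CPM in WT and at 149 and 263 CPM in TopBP1cKO (log2 fold change 0.60, SE 0.24, edgeR FDR 0.436). Relative to WT, the pair thus parted in TopBP1cKO replicate 2. Of the 31-base sequences of *Hspe1*, 48.1% recur in other annotated genes.

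*Hsf1*, the regulator, was expressed at 27.1 and 28.8 CPM in WT and at 32.7 and 30.9 CPM in TopBP1cKO (log2 fold change 0.19, SE 0.14, 95% interval −0.14 to 0.51, edgeR FDR 0.679). Both TopBP1cKO libraries were above both WT libraries, by less than a log2 unit. HSF1 is regulated mainly as a protein, so its transcript level does not report its activity. For *Hsf1*, 14 transcripts were listed, some of them with no count in any library. The highest single transcript held 159 and 174 counts in WT and 180 and 273 in TopBP1cKO.

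**Figure D3:**
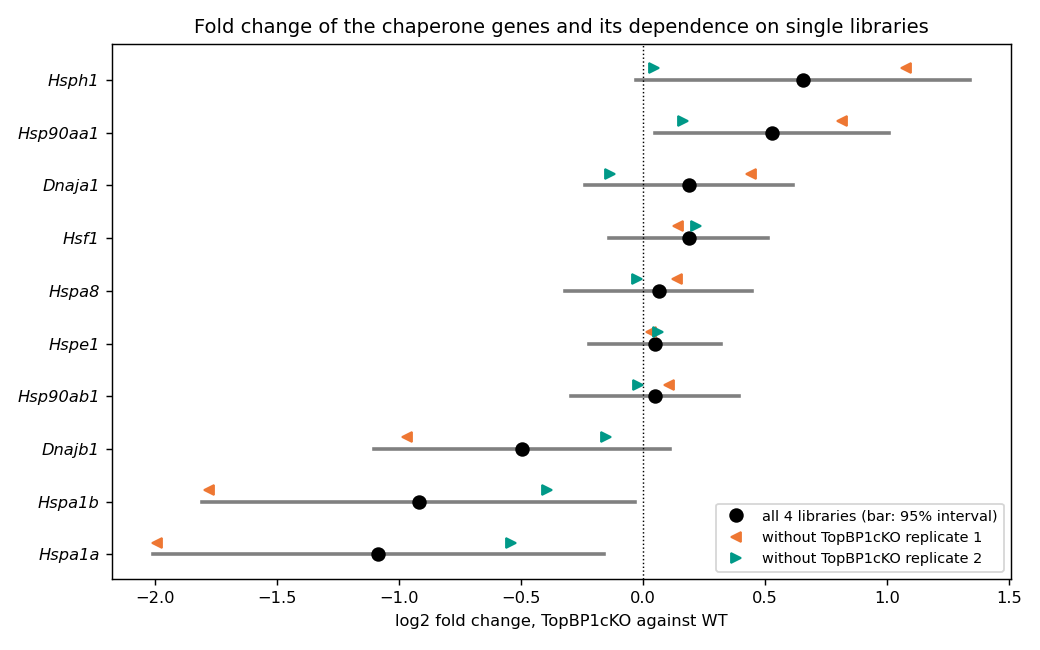
Log2 fold change of each chaperone gene, TopBP1cKO against WT, with all 4 libraries (black, with the 95% interval as a grey bar) and with 1 TopBP1cKO library left out (triangles). Without replicate 2 (green) *Hspa1a* is at −0.54 and *Hsph1* at 0.05; without replicate 1 (orange) they are at −1.99 and 1.08.

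Levels were compared between genes per kilobase of the most abundant transcript, for the 9 genes whose transcript length was at hand (*Hsf1* had none). In WT, *Hspa8* led at 2073 ± 64.3 CPM per kb (SD, n = 2), followed by *Hsp90ab1* at 846 ± 20.7, *Hspa1b* at 694 ± 68.3 and *Hspa1a* at 480 ± 61.1 CPM per kb. The inducible HSP70 genes thus stood above *Hsp90aa1*, at 165 ± 6.79 CPM per kb, in these sorted WT cells. *Hspe1* (153 ± 10.3 CPM per kb) overlapped with *Hsp90aa1* across the WT libraries. Within each WT library *Hsp90aa1* was slightly higher, at 169.3 beside 159.9 in replicate 1 and 159.7 beside 145.3 CPM per kb in replicate 2. *Dnaja1* (59.6 ± 0.676), *Dnajb1* (43.8 ± 9.05) and *Hsph1* (15.2 ± 1.85 CPM per kb) followed, and these did not overlap. In TopBP1cKO replicate 2, *Hspa1a* was at 121 CPM per kb and *Hspa1b* at 202, and *Hsp90aa1*, at 289 CPM per kb, stood above both.

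The wider chaperone system was examined through 10 lists of related genes, and no gene of these lists passed FDR < 0.05 by the quasi-likelihood test of edgeR. Among HSP90 co-chaperones, 3 of 15 were higher at an unadjusted P below 0.05, beside 6.95% of all genes, and 0 were lower. Of the 15, 9 lay above WT in both TopBP1cKO libraries, beside 22.8% of all genes. The list's median log2 fold change was 0.28. Its summed level was 1191 and 1279 CPM in WT, 1293 in TopBP1cKO replicate 1 and 1581 in replicate 2, so most of the rise was in replicate 2. *Stip1*, which encodes HOP, the bridge between HSP70 and HSP90, was at 99.3 and 106 CPM in WT and 123 and 202 CPM in TopBP1cKO (log2 fold change 0.67, SE 0.22, edgeR FDR 0.356). *Fkbp4* and *Ppid*, both immunophilins of HSP90 complexes, were the other 2, with log2 fold changes of 0.49 and 0.41. *Cdc37*, the kinase-specific co-chaperone, had the smallest P of those on the lower side (log2 fold change −0.14, SE 0.14, edgeR FDR 0.759).

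Endoplasmic reticulum chaperones and unfolded-protein-response genes had 6 of 18 members higher at an unadjusted P below 0.05, again beside 6.95% of all genes, and 0 lower. Of the 18, 11 lay above WT in both TopBP1cKO libraries and 1 below, beside 22.8% and 20.8% of all genes, and the median log2 fold change was 0.33. The list summed to 5782 and 5843 CPM in WT, 6253 in TopBP1cKO replicate 1 and 7885 in replicate 2, so most of the rise was in replicate 2. *Creld2*, an unfolded-protein-response target, was at 41.7 and 44.4 CPM in WT and 55.6 and 82.6 CPM in TopBP1cKO (log2 fold change 0.68, SE 0.19, edgeR FDR 0.337). The other 5 were *Calr*, *Hyou1*, *Pdia4*, *Pdia6* and *Sdf2l1*, which encode luminal folding factors, with log2 fold changes from 0.40 to 0.57. *Ddit3*, the stress transcription factor CHOP, was at −0.20 (SE 0.18, edgeR FDR 0.725).

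Over all genes, 6.95% were higher and 3.77% lower at an unadjusted P below 0.05. Apart from a list of further heat-inducible genes, the remaining chaperone lists had at most 1 gene in either direction at this threshold. Among mitochondrial chaperones (median log2 fold change 0.19, 10 genes) this was *Hspd1*. Among subunits of TRiC, the cytosolic chaperonin, and prefoldin (median 0.11, 14 genes) it was *Cct6a* at 0.44 (SE 0.16, edgeR FDR 0.380), with *Pfdn5* at −0.31 (SE 0.15, edgeR FDR 0.517) on the other side. Among other J-domain genes (median −0.08, 19 genes) it was *Dnajc9*, a histone co-chaperone, at 0.65 (SE 0.23, edgeR FDR 0.380), with *Dnajc14* at −0.26 on the lower side. Among BAG and other HSP70 cofactors (median 0.07, 9 genes) it was *Bag4* at 0.36 (SE 0.15, edgeR FDR 0.465), and *Bag1* was at −0.01. Among 6 other HSP70 and HSP110 genes (median 0.25) it was *Hspa2*, at 13.6 and 11.8 CPM in WT and 9.26 and 7.31 CPM in TopBP1cKO (log2 fold change −0.62, SE 0.22, edgeR FDR 0.389), while *Hspa4* was at 0.28. Of the small heat-shock protein genes, 5 had no count in any library and only *Hspb6* (log2 fold change 0.27) and *Cryab* (−0.65) were tested, at no more than 4.56 CPM. The 4 tested genes of the HSF family and its regulators had a median of 0.08, with *Vcp*, the unfolding ATPase, at 0.19.

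Among 15 further genes known as heat-inducible, 3 were higher and 2 lower at an unadjusted P below 0.05. Over all genes, 6.95% were higher and 3.77% lower. The list's median log2 fold change was 0.20. Those higher were *Stip1*, *Fkbp4* and *Hspd1*, which other lists also hold. *Ier5*, a cofactor of HSF1, had the smallest P on the lower side and was at 305 and 341 CPM in WT and at 261 and 159 CPM in TopBP1cKO (log2 fold change −0.62, SE 0.22, edgeR FDR 0.380). The heat-inducible genes thus did not share a direction.

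**Figure D4:**
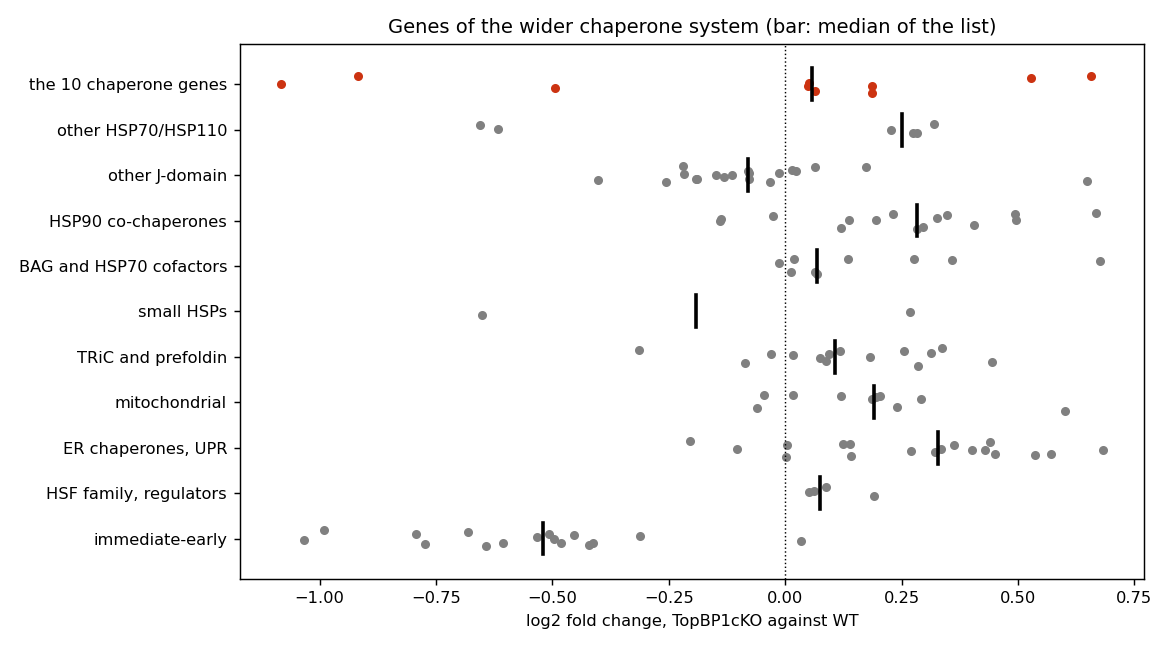
Log2 fold change (TopBP1cKO against WT) of each tested gene in the 10 chaperone genes (red) and in related lists (grey); the vertical bar is the list's median. The 10 chaperone genes run from −1.08 to 0.66 around a median of 0.057, and immediate-early genes have a median of −0.52.

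Immediate-early genes and cell cycle genes were also examined, and their part in the chaperone values was not tested. Immediate-early genes are also known to respond to tissue handling. Their median log2 fold change was −0.52, with 14 of 16 genes below WT in both TopBP1cKO libraries, beside 20.8% of all genes. Beside 3.77% of all genes, 10 of the 16 were lower at an unadjusted P below 0.05. *Fosb* was the only one at FDR < 0.05 and fell, from 331 and 346 CPM in WT to 177 and 164 CPM in TopBP1cKO (log2 fold change −0.99, SE 0.12, edgeR FDR 0.0421), and *Ier3* was the only one on the higher side, at 0.03. The summed level of the list was 2983 and 2989 CPM in WT, 2190 in TopBP1cKO replicate 1 and 1692 in replicate 2. Like *Hspa1a*, this sum was lower in replicate 1 and lowest in replicate 2. *Fosb* itself differed little between the TopBP1cKO libraries, at 0.523 and 0.483 of the WT mean, whereas *Hspa1a* was at 0.692 and 0.252. Cell cycle genes ran the other way, with all 20 above WT in both TopBP1cKO libraries, beside 22.8% of all genes. Their median was 1.29, with summed levels of 730 and 719 CPM in WT, 968 in replicate 1 and 2540 in replicate 2. None of the 20 passed FDR < 0.05 by the quasi-likelihood test of edgeR. All 20 were higher at an unadjusted P below 0.05, beside 6.95% of all genes. *Espl1* (separase) had the smallest P, with a log2 fold change of 1.29 (SE 0.28, edgeR FDR 0.307). *Hsp90aa1*, *Hsph1*, *Stip1* and *Hspd1* were likewise highest in replicate 2.

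Markers of other cells that a splenic sort could hold gave the following values, and their part in the chaperone values was not tested. The 13 neutrophil genes summed to 1249 to 1502 CPM in WT and 2500 to 3234 CPM in TopBP1cKO. Of these, 6 rose at FDR < 0.05 by the quasi-likelihood test of edgeR, beside 0.105% of all genes in both directions. They were *Ltf* (log2 fold change 1.69), *Lcn2* (1.79), *S100a8* (1.53), *S100a9* (1.48), *Ngp* (1.48) and *Cd177* (1.49). *Elane* and *Mpo*, which encode primary granule enzymes, were at opposite sides of WT in the TopBP1cKO libraries. *Elane* was at 98.4 and 65.7 CPM in WT and at 130 and 34.2 CPM in TopBP1cKO (log2 fold change 0.00, SE 0.51), and *Mpo* was at 598 and 423 CPM in WT and at 874 and 195 CPM in TopBP1cKO. Like *Hspa1a*, they were lower in replicate 2 than in replicate 1. Summed levels were 31 to 36.5 CPM in WT and 37.8 to 46.3 CPM in TopBP1cKO for B cell genes (8 tested, median 0.42, *Pax5* at 0.64 and *Ms4a1* at −0.18), and 4.90 to 4.95 CPM and 6.21 to 14.8 CPM for T cell genes (4 tested, median 1.05, *Cd3g* at 1.25). They were 185 to 201 CPM and 151 to 177 CPM for macrophage genes (6 tested, median −0.32, *Adgre1* at 0.48 and *C1qb* at −2.00 with an edgeR FDR of 0.346), and 14.7 to 18.0 CPM and 19.3 to 19.6 CPM for erythroid genes (5 tested, median 0.34, *Hba-a1* at 0.49 and *Car1* at −0.67). Plasmacytoid dendritic cell genes (8 tested, median 0.23) summed to 238 to 242 CPM and 229 to 230 CPM, and among them *Cox6a2* rose, from 0 and 3 counts in WT to 183 and 168 in TopBP1cKO (edgeR FDR 0.00762), and *Tcf4* was at −0.33. The EP and conventional dendritic cell list (12 tested, median −0.17) summed to 16421 to 17066 CPM in WT and 13031 to 16069 CPM in TopBP1cKO, with *Kit* at −0.30. Apart from *Cox6a2*, no tested marker was at 0 in any library.

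Genes with a pattern across the 4 libraries like that of 3 chaperone genes were named by the Euclidean distance between centred log2 CPM values, over 6717 genes of at least 20 CPM. Nearest to *Hspa1a* were *Pik3ip1* (distance 0.122), *Fgfr1* (0.156), *Tsc22d3* (0.229), *Gm38794* (0.393) and *2410006H16Rik* (0.475). *Tsc22d3*, the glucocorticoid-responsive gene that encodes GILZ, was at 331 and 310 CPM in WT and at 240 and 95.7 CPM in TopBP1cKO. Nearest to *Hspa8* were *Cyrib* (0.00752), *Vwa8* (0.0116), *Abracl* (0.0151), *Hnrnpk* (0.0152) and *Slc35e1* (0.0233), all of them nearly level. Nearest to *Hsp90aa1* were *Rcc1* (0.0327), *Cenpc1* (0.0415), *Ppa1* (0.0483), *Xpo1* (0.0581) and *Pdia4* (0.0584). *Rcc1*, the nucleotide exchange factor of RAN, was at 17.7 and 17.2 CPM in WT and at 19.6 and 30.3 CPM in TopBP1cKO. With 4 libraries, likeness of this kind rests largely on TopBP1cKO replicate 2.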

How the data were processed

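Total RNA of sorted CD24+ splenic EPs was sequenced from CORALL RNA-seq V2 libraries. The sample labels and the methods name different RNA extraction kits. The authors deposited whole-number read counts for each RefSeq transcript, without normalization. The submitters' processing notes list fastp, STAR, Salmon, GATK and the GRCm39 build with no roles or versions, and the rule for reads that match several transcripts is not given in the sources used here. Rows without an accession held 3.03% to 4.86% of counts.

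Transcript counts were added up for each gene symbol, and the 12393 genes that passed filterByExpr were compared between groups with the quasi-likelihood test of edgeR 4.0.16 (R 4.3.3, TMM, Benjamini–Hochberg over all genes tested, FDR < 0.05), which was checked on simulated data. The dispersion common to all genes was 0.0230. The alternatives were DESeq2 1.42.0 size factors and Wald test, upper quartile scaling, the likelihood ratio test, other filters, thinned counts, transcripts as features, *Hspa1a* and *Hspa1b* as 1 gene, replicate blocks and leaving out each library. Lengths and shared sequences came from GENCODE transcripts of GRCm38, and promoters from RefSeq on GRCm38.p6. Whether Gm15459 and Gm12346 had counts in these libraries was not checked.

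The labels do not say that libraries came from separate mice, so P values measure the spread between these libraries. Replicate numbers are not stated to mark a litter or batch, and the design has no block. Every chaperone gene is named, and of each other list the gene with the smallest P in each direction and those at FDR < 0.05. *Fkbp4*, *Ppid*, *Calr*, *Hyou1*, *Pdia4*, *Pdia6*, *Sdf2l1*, *Mpo*, *Cd24a* and *Itgax* beside them were named after their values were seen. One gene of the heat-inducible list is not reported here. The 10 genes and all lists were chosen with earlier results of these data known.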

Additional observations from a re-analysis of the deposited data

How the results depend on the processing

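The number of chaperone genes at FDR < 0.05 stayed at 0 with the Wald test and size factors of DESeq2, upper quartile scaling, the likelihood ratio test of edgeR, both other filters, thinned counts and *Hspa1a* and *Hspa1b* as 1 gene. The last left 1 gene with groups apart in the lower direction. Over all genes, the Wald test called 137 and the likelihood ratio test 234.

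With a replicate block, 504 genes passed, among them 6 genes of the other chaperone lists and 3 chaperone genes: *Hspa1a* (−1.25, edgeR FDR 2.73e-08), *Hspa1b* (−1.08, edgeR FDR 7.61e-06) and *Hsph1* (0.58, edgeR FDR 0.0458). The deviations of same-numbered libraries correlated at −0.163 over 6727 genes, so the numbers are not shown to pair the libraries. The crossed replicate block, added after the data were seen, gave 158 genes and 0 chaperone genes.

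Leaving out each library in turn gave 1 to 2625 genes at FDR < 0.05, 0 to 6 chaperone genes and 0 to 37 genes of the other chaperone lists. Chaperone genes with groups apart numbered 2 to 6 in the higher and 2 to 4 in the lower direction. A group left with 1 library lies apart more easily, and shares over all genes were not worked out for these fits. These numbers thus cannot be compared with those of all 4 libraries. The highest counts at FDR < 0.05 came without TopBP1cKO replicate 1 and the lowest number of all genes without WT replicate 2. The median of the 10 genes ran from −0.024 (without TopBP1cKO replicate 2) to 0.12. The estimates crossed 0 for *Hspe1* (−0.029 without WT replicate 2, up to 0.12), *Hspa8* (−0.025 to 0.14), *Dnaja1* (−0.14 to 0.44) and *Hsp90ab1* (−0.022 to 0.11). With transcripts as features, the values ran from −0.018 to 0.067 for *Hspa8*, −0.24 to 3.08 for *Hsph1* and 0.057 to 1.94 for *Dnaja1*. They ran from −1.15 to −0.49 for *Dnajb1* and −1.33 to 7.82 for *Hsf1*, and none was at FDR < 0.05. The highest values of *Hsph1*, *Dnaja1* and *Hsf1* and the lowest of *Dnajb1* came from transcripts with few counts. That of *Hsf1* held 0 and 0 counts in WT and 12 and 46 in TopBP1cKO. The most abundant transcripts of *Hsph1* and *Dnaja1* were at 0.87 and 0.18. The cause of the changes between settings was not tested. With 2 libraries a group, small differences in *Hspa8*, *Hsp90ab1* or *Hspe1* could not be resolved.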

Other observations

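Transcript use in *Hsph1* varied between libraries. The most abundant transcript took 64.1% and 77.8% of *Hsph1* counts in WT and 85.1% and 79.5% in TopBP1cKO, and a second, predicted one took 35.6% and 20.2% in WT and 12.9% and 16.5% in TopBP1cKO, so that the groups did not overlap for either. No test was run on these shares. How reads shared by transcripts were assigned is not given in the sources used here, so these shares are descriptions only. Mitochondrial transcripts took 1.32% and 0.727% of counts in WT and 0.920% and 1.36% in TopBP1cKO, the order that *Hspa8* also had across the libraries; the part of the mitochondrial share in that order was not tested. *Mki67*, a proliferation marker, was at 216 and 202 CPM in WT and at 253 and 785 CPM in TopBP1cKO.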
